A study of Mus musculus with 2 samples.

Results

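A set of 9 genes encodes the sarcomere isoforms followed here around birth in the mouse heart: Myh6, Myh7, Tnni1, Tnni3, Actc1, Acta1, Myl2, Myl4 and Myl7. They were taken by gene symbol from the 31053 genes of the count table. The genes were chosen for their role but with earlier results of these data known, and all 9 were found in both libraries. Live cells of the hearts of P1 and P7 mice had been profiled by droplet-based single cell RNA-seq of 3′ ends, in which molecules are counted by unique molecular identifiers (UMIs). Each age was 1 library of 3 hearts pooled within a litter, so no value below has a replicate and no test between the ages could be made. The hearts were digested with collagenase for 20 min at P1 and 45 min at P7, red cells were lysed and live cells were sorted, and neither a genetic change nor a treatment is recorded for either group. Strain is not given in the sources used here.

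The sarcomere is the contractile unit of striated muscle, in which thick filaments of myosin pull on thin filaments of actin under the control of the troponin complex. Several of its proteins exist as isoforms that exchange during heart development. In rodents the ventricle is known to move from the slow myosin heavy chain of Myh7 to the fast one of Myh6, and from the slow skeletal troponin I of Tnni1 to the cardiac troponin I of Tnni3. The light chains of Myl7 and Myl4 are known as atrial forms in the mature heart and that of Myl2 as the ventricular form.

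A myocyte was defined as a kept barcode in which Tnnt2, Ttn and Myl3 together made up at least 1% of the non-mitochondrial UMIs and in which no UMI of the endothelial gene Pecam1 was found. This gate held 84 of 4991 barcodes at P1 (1.68%, with a 95% Clopper-Pearson range from 1.34 to 2.08%), while 19 of 8511 passed at P7 (0.223%, 0.134 to 0.348%). The P1 myocytes held 510869 non-mitochondrial UMIs with a median of 3823 per barcode, and the P7 myocytes held 54385 with a median of 1477. Depth thus differed between the ages as well as the number of cells, and 3 barcodes gave 51.7% of the P7 UMIs. All intervals given here cover counting error only. Over all kept barcodes the 2 libraries also differed in sex-linked transcripts, with 57336 Xist UMIs at P1 against 12 at P7 and 2 UMIs of 4 Y-linked genes at P1 against 18039 at P7, so age, litter, sex and digestion time cannot be told apart. The libraries shared 13 kept barcodes, of which 0 were myocytes in both.

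Genes that the gate did not use also marked these barcodes as muscle: Tnnc1, the calcium-binding troponin, was at 8795 CPM at P1 and 12044 CPM at P7, where CPM means UMIs per 1000000 non-mitochondrial UMIs. Markers of other cells were low but not absent. The 6 endothelial markers summed to 483 CPM at P1 and 1195 CPM at P7, the 6 fibroblast markers to 898 and 680 CPM, and the 6 leukocyte markers to 23.5 and 184 CPM. Pecam1 is 1 of the endothelial markers and was fixed at 0 by the gate, and Fabp4 gave 417 and 1011 CPM of that sum. The 5 erythroid markers summed to 930 and 55.2 CPM, with 404908 CPM in a single P1 barcode, and the 6 skeletal muscle markers to 5.87 and 0 CPM. The part of these transcripts in the results below was not tested.

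In myocytes the 9 genes together took 5.23% of non-mitochondrial UMIs at P1 and 4.84% at P7. Against the P7 library, Myh6, Acta1, Myl4 and Myl7 were more than 2-fold higher at P1 and the other 5 genes were within 2-fold. Thus 4 of the 9 were at least 2-fold higher at P1, where 17.8% of all 3214 genes with at least 20 UMIs were, and 0 of the 9 were at least 2-fold higher at P7, where 4.88% of all genes were. On the log2 scale the 9 genes had a median P1 over P7 ratio of 0.77, and all genes one of 0.14. For the 238 genes at 0 at P7 the ratio depends on the count added, and with those genes at the ratio given by a floor of 3 counts the median of all genes was 0.04 and 10.9% were at least 2-fold higher at P1.

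**Figure D1:**
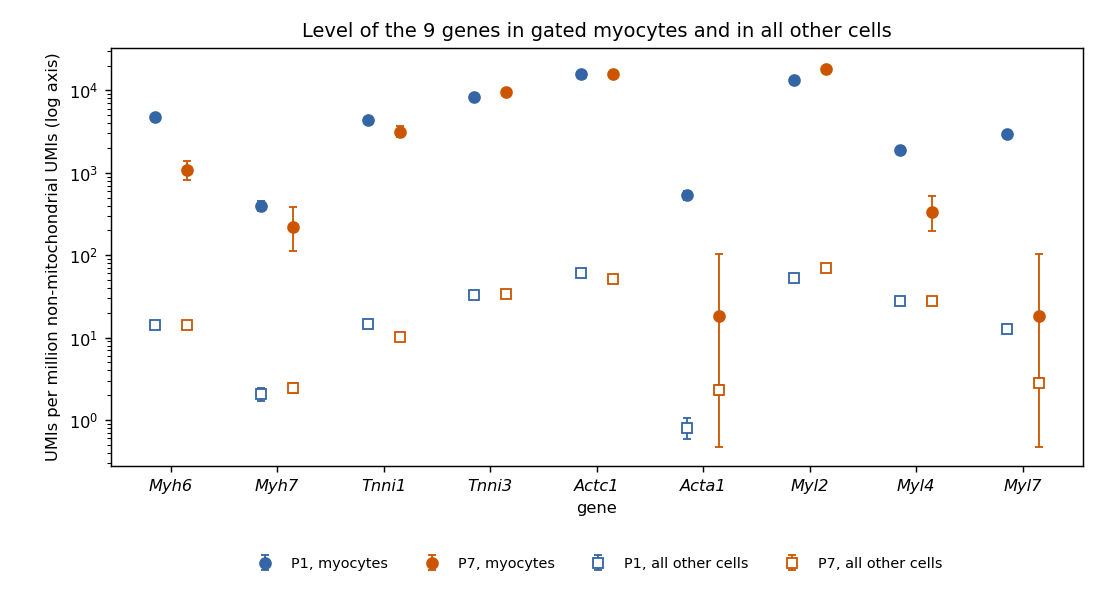
UMIs per 1000000 non-mitochondrial UMIs (log axis) of the 9 genes at P1 and P7, with filled circles for myocytes, open squares for all other kept barcodes, and bars for 95% Poisson intervals. Actc1, Myl2, Tnni3 and Tnni1 lie close together at the 2 ages in myocytes, whereas Myl7 goes from 2995 CPM at P1 to 18.4 CPM at P7 and Acta1 from 530 to 18.4 CPM.

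Because 1 UMI stands for 1 captured 3′ end, levels of different genes were compared without scaling by length, and differences in capture between transcripts remain. At P1 the order from high to low was Actc1, Myl2, Tnni3, Myh6, Tnni1, Myl7, Myl4, Acta1 and Myh7, and no neighbours in it had overlapping intervals. Counting intervals do not cover the spread between barcodes, and a few barcodes set several of these places. Without the deepest P1 myocyte, Myh6 (3682 CPM) stood below Tnni1 (4429 CPM) and Acta1 (74.5 CPM) below Myh7 (345 CPM). Without the 3 barcodes that were rich in Myl7, described below, Myl7 (182 CPM) was the lowest of the 9 genes. At P7 it was Myl2, Actc1, Tnni3, Tnni1, Myh6, Myl4 and Myh7, followed by Acta1 and Myl7 at 1 UMI each. Myl4 and Myh7 were not separated beyond counting error there, and neither were Acta1 and Myl7. Myl2 led the P7 order in the summed counts, but Actc1 led it with cells weighted equally (13213 against 12817 CPM), with myocytes thinned to 1000 UMIs (16818 against 15546 CPM) and with a stricter doublet filter (17985 against 15835 CPM), which left out myocytes with a Ptprc or Cdh5 UMI or at least 0.5% of fibroblast genes.

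Myh6 and Myh7 encode the myosin motor of the thick filament and lie in tandem on the minus strand of chromosome 14, with Myh6 at chr14:54941921-54966927 and Myh7 at chr14:54970684-54994626 (GRCm38), 3756 bases apart. Myh6 gave 2446 UMIs in P1 myocytes (4788 CPM) and 59 in P7 myocytes (1085 CPM), which was 4.38-fold higher at P1 (log2 2.13, interval 1.77 to 2.54). Myh7 gave 200 UMIs at P1 (391 CPM) and 12 at P7 (221 CPM), a log2 ratio of 0.77 whose interval, -0.01 to 1.80, included 0 and which was -0.38 with cells weighted equally. Myh6 was therefore the major heavy chain at both ages. It made up 92.4% of the pair at P1 (91.4 to 93.4%) and 83.1% at P7 (72.3 to 91.0%), a difference of -9.34 percentage points (Newcombe interval -19.7 to -2.30) that was -4.76 with myocytes thinned to 1000 UMIs. Only 3 P7 barcodes held at least 10 UMIs of the pair, and 1 P7 barcode with 735 non-mitochondrial UMIs held 4 of the 12 Myh7 UMIs. The last 500 bases of the longest coding transcripts of this pair share 193 of 451 sequences of 50 bases (42.8%), and no other pair among the 9 genes shares any, so the division of UMIs between Myh6 and Myh7 is uncertain. Myh7 also overlaps Mhrt on the other strand, and whether the counting used strand is not given in the sources used here.

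Myh6 was most abundant in barcodes with a very high mitochondrial share. In P1 myocytes with at most 5% mitochondrial UMIs there were 39.1 Myh6 UMIs per 100 of Tnni3, and in the 10 P1 myocytes above 5% there were 114, or 44.9 without the 2 of these barcodes with most Myh6. Among myocytes with at most 5% the log2 ratio of Myh6 was 1.49. Barcodes that passed the myocyte gate but were removed for exceeding 20% mitochondrial UMIs held 206 per 100 at P1 (31 barcodes) and 498 at P7 (14 barcodes), and 240 and 450 without the deepest of them in each library. In those removed barcodes Myh6 was at 17115 CPM at P1 and 19088 CPM at P7, so that the 2 ages were within counting error of each other (log2 -0.16, -0.37 to 0.06). Myh7 was at 2196 and 9633 CPM in them, higher at P7 (log2 -2.13), and the Myh6 share was 88.6% at P1 and 66.5% at P7, with 85 of the 108 P7 Myh7 UMIs in 1 barcode. With no mitochondrial limit at all, the log2 ratio of Myh6 was 0.56 and that of Myh7 was -1.63. The lower Myh6 level of P7 myocytes thus held for barcodes under the limit. Above the limit, that 1 P7 barcode held 97 of the 214 Myh6 UMIs as well as the 85 of Myh7. The lower Myh6 share and higher Myh7 level there thus rested largely on it, and neither was computed without it. The part of the mitochondrial share was not tested. The split at 5% and the counts in removed barcodes were examined after the other values had been seen.

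Tnni1 and Tnni3 encode the inhibitory subunit of troponin, at chr1:135779434-135810989 on the plus strand and chr7:4518305-4524229 on the minus strand (GRCm38). Tnni3 overlaps Dnaaf3 on the same strand, so reads there are uncertain. Tnni3 gave 4295 UMIs at P1 (8407 CPM) and 525 at P7 (9653 CPM), slightly more at P7 (log2 -0.20, -0.33 to -0.07). That direction did not hold under all settings, since the log2 ratio was 0.18 with cells weighted equally, 0.05 with the stricter doublet filter and 0.00 with thinned myocytes. Tnni1 gave 2204 UMIs at P1 (4314 CPM) and 171 at P7 (3144 CPM), more at P1 (log2 0.45, 0.23 to 0.69), and its ratio lay between 0.34 and 1.09 over the 15 alternatives run. Both isoforms were thus abundant at both ages, and their balance differed. The Tnni3 share of the pair was 66.1% at P1 (64.9 to 67.2%) and 75.4% at P7 (72.1 to 78.6%), a difference of 9.34 points (5.82 to 12.6). Its range over single barcodes was wide: among those with at least 10 UMIs of the pair it ran from 21.4 to 87.5% with a median of 64.9% at P1 (70 barcodes) and from 40 to 100% with a median of 74.3% at P7 (10 barcodes), so the ages overlapped. Of these barcodes, 7 at P1 and 1 at P7 held more Tnni1 than Tnni3. The summed P7 share rested largely on few barcodes. In P7 myocytes 1 barcode held 158 of the 525 Tnni3 and 60 of the 171 Tnni1 UMIs, the deepest 125 and 39, and another 76 and 20.

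The troponin I difference was also present outside the gate, though not in each group of barcodes. In all other kept barcodes, where the Tnni3 level was 257-fold (P1) and 289-fold (P7) below that of myocytes, the Tnni3 share was 69.1% at P1 and 76.8% at P7 (difference 7.70 points, 5.53 to 9.88). In the endothelial gate alone it was 66.7 and 77.7% (10.9 points, 7.93 to 14.0). In the fibroblast gate it was 68.7 and 72.9% (4.23 points, -0.14 to 8.53), and in barcodes outside all gates 75.1 and 76.3% (1.25 points, -5.23 to 7.47). Both of these intervals included 0. In the barcodes removed for exceeding the mitochondrial limit it was 74.5% at P1 (71.2 to 77.7%) and 71.7% at P7 (58.6 to 82.5%, from 60 UMIs), so no difference was detectable there. The other kept barcodes came from the same hearts and libraries as the myocytes and are no replicate of them. In the endothelial gate Actc1 was found at 181 UMIs per 100 of Tnni3 at P1 and 156 at P7, close to the 186 and 164 of myocytes. This did not hold for each member. At P7 the endothelial gate held 850 Myh6 and 336 Myl4 UMIs to 2306 of Tnni3, and myocytes 59 and 18 to 525.

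**Figure D2:**
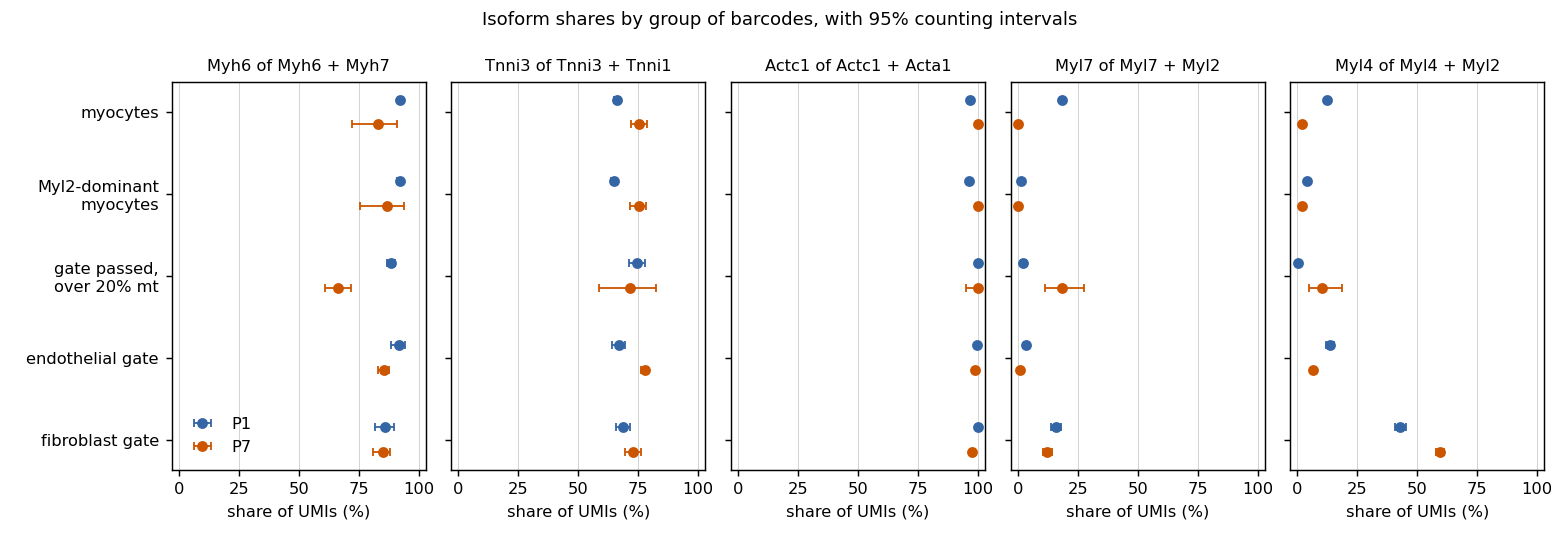
Percent of the UMIs of each gene pair that belong to the first named gene, at P1 and P7, in myocytes, in Myl2-dominant myocytes, in gate-passing barcodes over 20% mitochondrial UMIs, and in the endothelial and fibroblast gates, with 95% Clopper-Pearson intervals. The Tnni3 share is higher at P7 in myocytes (66.1 to 75.4%) and in the endothelial gate (66.7 to 77.7%), and the Myl7 share of myocytes goes from 18.3 to 0.101%.

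Actc1 and Acta1 encode the cardiac and skeletal alpha actins of the thin filament, and lie on the minus strand at chr2:114047282-114053548 and chr8:123891769-123894751 (GRCm38). Actc1 was the most abundant of the 9 transcripts at P1 with 7989 UMIs (15638 CPM), and gave 862 at P7 (15850 CPM), the smallest difference of the 9 (log2 -0.02, -0.12 to 0.08). Acta1 gave 271 UMIs at P1 (530 CPM) and 1 at P7 (18.4 CPM), a log2 ratio of 4.27 with an interval from 2.36 to 10.16. Cardiac actin thus made up nearly all UMIs of the pair, 96.7% at P1 (96.3 to 97.1%) and 99.9% at P7 (99.4 to 100%), a difference of 3.17 points (2.52 to 3.58).

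Most of the Acta1 difference came from 1 barcode. The deepest P1 myocyte, with 41288 non-mitochondrial UMIs and 10.5% mitochondrial UMIs, held 236 of the 271 Acta1 UMIs (87.1%), 717 of 2446 Myh6 UMIs (29.3%) and 191 of 972 Myl4 UMIs (19.7%), while it held 6.65% of Actc1 and 6.65% of Myl2. It also held 762 of the 1036 UMIs of Ttn, the giant spring protein. Without the deepest myocyte of each library, Acta1 was at 74.5 CPM at P1 and 23.3 CPM at P7 (log2 1.11, -0.90 to 7.02), and the Actc1 share was 99.5 and 99.8%, a difference of 0.312 points (-0.420 to 0.534). Acta1 was thus not separable between the ages at this depth once that barcode was left out, although it stayed past 2-fold. The log2 ratio of Myh6 was 1.76 without it. This alternative was chosen after the values had been seen.

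Of the 9 genes, Actc1, Acta1 and Myl7 carry a CArG box, the motif bound by serum response factor, in the 300 bases around their RefSeq start (250 before and 50 after). These genes share the motif while having the log2 ratio nearest to 0 (Actc1) and the largest ones (Myl7, then Acta1) in myocytes. The largest ones rested mostly on 3 P1 barcodes for Myl7 and on 1 for Acta1. For these 3 genes the 250 bases before the start are printed. They are RefSeq sequences of GRCm38.p6, all from the minus strand and written 5′ to 3′: Actc1 chr2:114052876-114053125, Acta1 chr8:123894776-123895025 and Myl7 chr11:5898783-5899032. Capitals mark the CArG box, the TATAAA box and the CATTCC motif where they occur.
Actc1: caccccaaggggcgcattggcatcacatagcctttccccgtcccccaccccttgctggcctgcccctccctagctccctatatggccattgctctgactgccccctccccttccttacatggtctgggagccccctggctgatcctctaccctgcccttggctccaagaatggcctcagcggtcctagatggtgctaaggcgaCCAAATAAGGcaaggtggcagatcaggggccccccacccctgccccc
Acta1: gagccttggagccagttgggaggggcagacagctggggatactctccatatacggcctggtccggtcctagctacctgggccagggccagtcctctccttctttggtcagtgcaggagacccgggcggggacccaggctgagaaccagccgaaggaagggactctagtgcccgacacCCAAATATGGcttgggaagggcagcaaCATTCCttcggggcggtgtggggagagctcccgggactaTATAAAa
Myl7: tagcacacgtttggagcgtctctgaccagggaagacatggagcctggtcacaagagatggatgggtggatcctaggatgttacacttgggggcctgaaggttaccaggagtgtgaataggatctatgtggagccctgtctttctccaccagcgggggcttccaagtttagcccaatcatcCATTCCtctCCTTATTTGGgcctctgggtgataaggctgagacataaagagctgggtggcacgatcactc
The CArG box begins 47 bases before the start in Actc1 (CCAAATAAGG), 73 in Acta1 (CCAAATATGG) and 61 in Myl7 (CCTTATTTGG). Both strands were searched, and 535 of the 32851 RefSeq promoters of that length (1.63%) hold it. CATTCC was found in 4 of the 9 genes (14.7% of all promoters) and TATAAA was found in 4 (13.6%). AGATAA was found in 1 gene, Myl2 (11.2%). The RefSeq entries of Myl2 lie at chr5:122092474-122092773 and chr5:122092939-122093238, well before its gene position (chr5:122100951-122113472). The bases directly before that position were therefore not searched for any motif. The bases searched for Myh6, Tnni1, Tnni3 and Actc1 lie within their gene positions, so those directly before these positions were not searched either. The TATAAA match of Myl2 also comes from its entries given above, and the matches of Myh6 and Actc1 lie after the start, at bases 2 and 34. In the bases searched, the MEF2 motif was found in 0 of the 9 genes (3.19% of all promoters). These motifs do not overlap in the sequences shown, and a match is a description of the letters only.

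Myl2, Myl4 and Myl7 encode light chains that sit on the neck of the myosin head. Myl2 lies at chr5:122100951-122113472 on the plus strand, Myl4 at chr11:104550663-104595753 on the plus strand and Myl7 at chr11:5896637-5898782 on the minus strand (GRCm38). Myl2 gave 6811 UMIs at P1 (13332 CPM) and 985 at P7 (18112 CPM), 1.36-fold higher at P7 (log2 -0.44, -0.54 to -0.34), but its log2 ratio was -0.22 with the stricter doublet filter, -0.16 with thinned myocytes and 0.09, higher at P1, with cells weighted equally. Myl7 gave 1530 UMIs at P1 (2995 CPM) and 1 at P7 (18.4 CPM), the largest ratio of the 9 genes (log2 6.76, 4.87 to 12.65). Myl4 gave 972 UMIs at P1 (1903 CPM) and 18 at P7 (331 CPM), with a log2 ratio of 2.48 (1.86 to 3.28), and 13 of the 18 P7 UMIs were in 1 barcode. The light chains named as atrial were thus higher in the P1 sum, while the direction for the ventricular one depended on how cells were weighted. Relative to Myl2, the Myl7 share was 18.3% at P1 (17.5 to 19.2%) and 0.101% at P7 (0.0026 to 0.564%), and the Myl4 share 12.5% (11.8 to 13.2%) and 1.79% (1.07 to 2.82%). Myl4 and Myl2 are not forms of the same light chain, so the Myl4 share only sets 1 transcript against the other. Myl3, another light chain gene, gave 7877 UMIs at P1 and 1202 at P7 but served the gate and was not paired. A Myl7 UMI was found in 34.5% of P1 myocytes and 5.26% of P7 myocytes, against 1.65 and 0.226% of barcodes in the leukocyte gate, which had the greater median depth (7562 and 6305 UMIs).

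Single barcodes held mainly either Myl2 or Myl7. Among barcodes with at least 10 UMIs of the pair, 69 at P1 and 13 at P7 were Myl2-dominant (at most 20% Myl7), 3 at P1 and 0 at P7 were Myl7-dominant (at least 80%), and 0 lay between. The other 12 P1 and 6 P7 myocytes had fewer than 10 UMIs. The 3 Myl7-dominant barcodes held 1444 of the 1530 P1 Myl7 UMIs (94.4%) and 673 of the 972 Myl4 UMIs (69.2%), with 0 Myl2 UMIs. In Myl2-dominant barcodes Myl7 made up 83 of 6823 UMIs at P1 (1.22%) and 0 of 962 at P7, which allows a share of up to 0.383% (the upper Clopper-Pearson bound). The Myl7 difference between the libraries thus rested mostly on 3 cells of 1 library: without them the log2 ratio was 2.73 for Myl7 and 0.90 for Myl4, which was then within 2-fold. The deepest P1 barcode held another 191 of the P1 Myl4 UMIs, and the myocytes other than it and these 3 held 108. In the barcodes removed for exceeding the mitochondrial limit, Myl7 made up 25 of 1068 UMIs at P1 (2.34%) and 18 of 97 at P7 (18.6%), the opposite order.

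**Figure D3:**
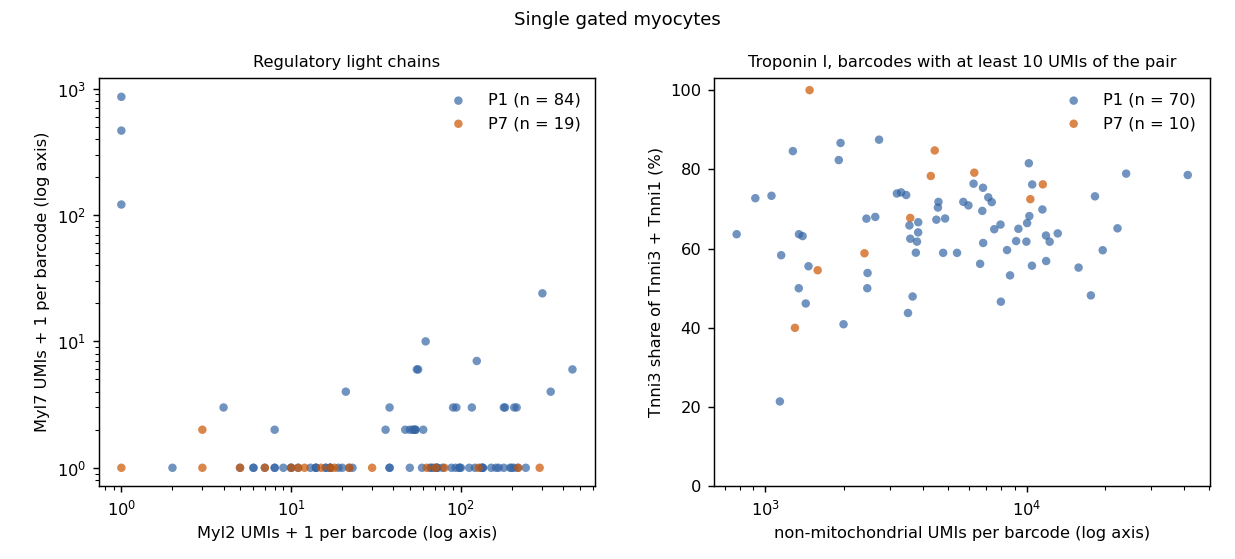
Left, UMIs plus 1 of Myl7 against Myl2 in the 84 P1 and 19 P7 myocyte barcodes (log axes). Right, the Tnni3 share in percent against non-mitochondrial UMIs (log axis) in the 70 P1 and 10 P7 barcodes with at least 10 UMIs of the pair. The 3 Myl7-dominant P1 barcodes stand apart with 0 Myl2 UMIs, and the Tnni3 shares of the ages overlap.

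The genes that the cut did not use also differed between the Myl7-dominant and the Myl2-dominant barcodes of P1, given here as a description because 3 barcodes of 1 library allow no test. A list of 10 genes known from atrial myocytes summed to 15443 CPM in the Myl7-dominant barcodes, 610 CPM in the Myl2-dominant barcodes of P1 and 235 CPM in those of P7. It was led by Nppa, encoding atrial natriuretic peptide (9797 against 493 CPM at P1), and Sln, encoding the calcium pump inhibitor sarcolipin (4048 against 54.3 CPM). Nppa was at 283, 97 and 0 UMIs in the 3 barcodes and Sln at 96, 23 and 38. The barcode with 97 Nppa UMIs also held 47 UMIs of the fibroblast collagen gene Col1a1, which was at 1238 CPM in the 3 barcodes and 200 CPM in all P1 myocytes, and its part in these values was not tested. A list of 5 genes known from ventricular myocytes summed to 799, 5785 and 6001 CPM. Irx4, a ventricular transcription factor, was at 0 UMIs in the Myl7-dominant barcodes, where 3 UMIs would be 77.3 CPM, and at 124 CPM in the Myl2-dominant ones. Among the 9 isoforms, the Tnni3 share was 79.2% in the Myl7-dominant barcodes (75.6 to 82.6%) against 64.8% in the Myl2-dominant ones (63.6 to 66.0%), and the Myh6 share 95.8 against 92.2%.

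Within the Myl2-dominant barcodes the isoform balance between the ages could be compared without the Myl7-dominant cells. This also left out the 12 P1 and 6 P7 myocytes with fewer than 10 UMIs of Myl2 and Myl7. The Tnni3 share was 64.8% at P1 and 75.1% at P7 (10.4 points, 6.76 to 13.7). The Myh6 share was 92.2 and 86.7% (-5.49 points, -16.4 to 1.03), a difference that counting error could give. Myl4 made up 4.22 and 1.84% of the Myl4 and Myl2 UMIs, but 191 of these 297 P1 Myl4 UMIs were in the deepest barcode. At P7, 13 of the 18 Myl4 UMIs were in 1 barcode. The direction of the Myl4 share without these barcodes was not tested. The troponin I difference was thus as large in these barcodes as in all myocytes, and the heavy chain difference was not detectable in them at this depth. With only the Myl7-dominant barcodes left out, the Myh6 share difference was -9.08 points. The 6 P7 myocytes with fewer than 10 UMIs of Myl2 and Myl7 held 7 Myh6 UMIs and 4 of the 12 P7 Myh7 UMIs. These barcodes held 3796 of the 4295 myocyte Tnni3 UMIs at P1 and 511 of the 525 at P7, so the 2 troponin I values are not independent.

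**Figure D4:**
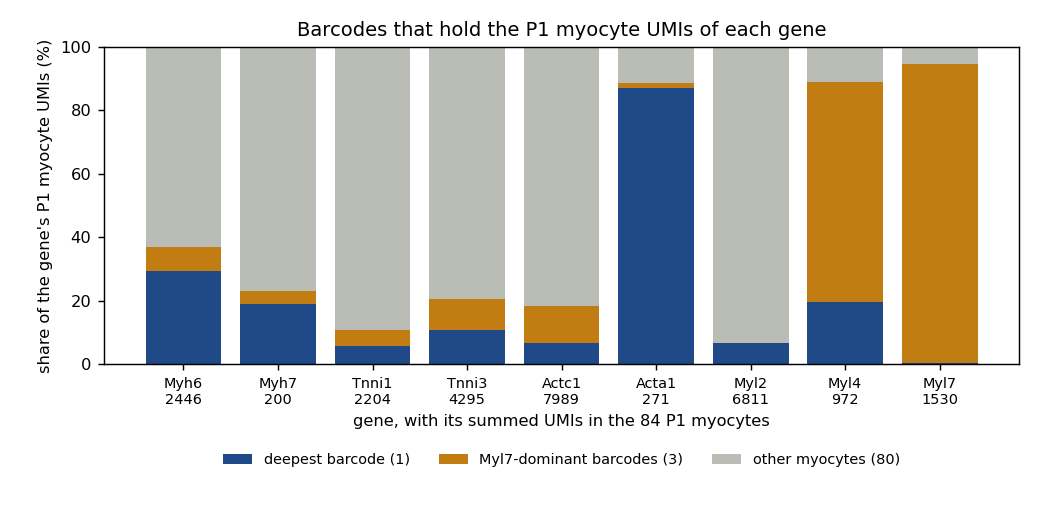
Percent of the P1 myocyte UMIs of each gene held by the deepest barcode (1), the Myl7-dominant barcodes (3) and the other myocytes (80). The deepest barcode holds 87.1% of Acta1 and 29.3% of Myh6, and the Myl7-dominant barcodes hold 94.4% of Myl7 and 69.2% of Myl4.

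The gate at 1% passed through barcodes of the same kind. Just inside it, at 1.13%, a P1 barcode held 464 Myl7, 246 Myl4 and 0 Myl2 UMIs, and just outside, at 0.985%, another held 372 Myl7, 229 Myl4 and 0 Myl2 UMIs with 42 of Sln. At P7 the nearest barcode inside (1.19%) held 3 UMIs of Tnni3 and 3 of Actc1, and the nearest outside (0.765%) 1 UMI each of Myh6, Tnni3 and Myl2. Between 0.5 and 1% there were 13 barcodes at P1 and 6 at P7, and between 1 and 2% there were 10 and 4. The gate gene Myl3 was at 7 UMIs in the 3 Myl7-dominant barcodes (180 CPM) and at 16809 CPM in the Myl2-dominant ones of P1. Those 3 passed mainly on Tnnt2 (359 UMIs), so Myl3 added little toward the gate in them. The Myl7 share of P1 was 21.4% at a gate of 0.5%, 1.05% at 3%, and 21.2% with the gate genes Actn2, Tnnc1, Mybpc3 and Myom1.

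In all other kept barcodes the 9 genes took 0.0219% of UMIs at P1 and 0.0214% at P7. Their summed levels there were close between the ages for Myh6 (14.4 and 14.2 CPM), Tnni3 (32.7 and 33.4 CPM) and Myl4 (27.5 and 28.0 CPM), but single gates differed. From P1 to P7, Tnni3 went from 38.6 to 70.6 CPM in the endothelial gate and from 29.2 to 12.6 CPM in the fibroblast gate. Myh6 went from 17.9 to 26.0 CPM and from 12.4 to 8.22 CPM in them, and Tnni1 from 19.2 to 20.3 CPM and from 13.3 to 4.69 CPM. At P7 the endothelial gate gave 73.2% of the Tnni3 UMIs outside myocytes, from 42.4% of the barcodes. Over all other kept barcodes, Tnni1 was at 14.6 and 10.1 CPM, higher at P1 as in myocytes (log2 0.53), though not in the endothelial gate. Acta1 was at 0.797 and 2.30 CPM, higher at P7 (log2 -1.52), and Myl7 at 12.7 and 2.85 CPM. Levels in myocytes were 69.2-fold (Myl4) to 665-fold (Acta1) above those of other cells at P1 (without the deepest myocyte 60.5-fold for Myl4, 93.5-fold for Acta1 and at most 303-fold, for Tnni1), and 6.45-fold (Myl7) to 311-fold (Tnni1) above them at P7. Free RNA in droplets gives UMIs to cells that do not express a gene, in like proportions across the cell types of a library. At P7 the proportions of Myh6 and Myh7 to other members differed between myocytes and other cells. Myocytes stood 76.4-fold (Myh6) and 90.1-fold (Myh7) above other cells there, against 262-fold (Myl2) to 311-fold (Tnni1) for Myl2, Tnni3, Actc1 and Tnni1. The P7 endothelial gate held 850 Myh6 and 2306 Tnni3 UMIs, and P7 myocytes held 59 and 525. The cause was not tested. The proportions of Myl4, Myl7 and Acta1 to the other members differed between groups of barcodes, as described next.

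Myl4 was at 36.2 CPM at P1 and 40.6 CPM at P7 in the fibroblast gate, against 11.3 and 10.3 CPM in the endothelial gate and 5.64 and 10.6 CPM in the leukocyte gate. In the mural gate it was at 23.5 and 47.6 CPM. In barcodes outside all gates it was at 51.4 and 28.1 CPM, with 229 of the 467 P1 UMIs in 1 barcode. Per 100 UMIs of Tnni3, the fibroblast gate held 124 Myl4 UMIs at P1 and 322 at P7, where myocytes held 22.6 and 3.43. The fibroblast gate gave 51.1 and 67.4% of the Myl4 UMIs outside myocytes, from 31.6 and 33.1% of the barcodes. Myl4 was thus spread differently from Tnni3 over cell types, which was seen in both libraries.

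Myl7 was concentrated in a few barcodes with at least 2 UMIs of Upk3b, a gene of mesothelial and epicardial cells. These 50 barcodes at P1 and 31 at P7 held 140 and 185 Myl7 UMIs (194 and 410 CPM), or 19.6 and 68.8% of the Myl7 UMIs outside myocytes. A Myl7 UMI was found in 44.0 and 54.8% of them, at median depths of 14731 and 14169 UMIs. Ttn was at 0 UMIs in them and Myl2 at 10 UMIs in each library. Their troponin I was mostly the slow form, with 31 Tnni1 against 8 Tnni3 UMIs at P1 and 19 against 2 at P7, so that the Tnni3 share was 20.5% (9.30 to 36.5%) and 9.52% (1.17 to 30.4%). This share lay below that of myocytes at both ages without overlap of the intervals. A single P1 barcode just outside the myocyte gate, described above, held another 372 of the 716 P1 Myl7 UMIs outside myocytes.

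Acta1 outside myocytes lay mostly in barcodes in which Acta2, the smooth muscle actin, made up at least 2% of the UMIs. These 52 barcodes at P1 and 202 at P7 held 31 and 145 Acta1 UMIs (49.3 and 63.5 CPM), or 68.9 and 66.8% of those outside myocytes, in 4 and 19 barcodes. The most in 1 barcode was 13 at P1 and 34 at P7. The Actc1 share of the summed UMIs there was 38.0% at P1 (24.7 to 52.8%) and 22.9% at P7 (17.1 to 29.5%). Acta1 thus exceeded Actc1 in the sum, at P1 within counting error of equal shares. Actc1 was found in more of these barcodes than Acta1, 13 at P1 and 25 at P7. The Upk3b and Acta2 groups were chosen after the values had been seen, which makes these counts a description.

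**Figure D5:**
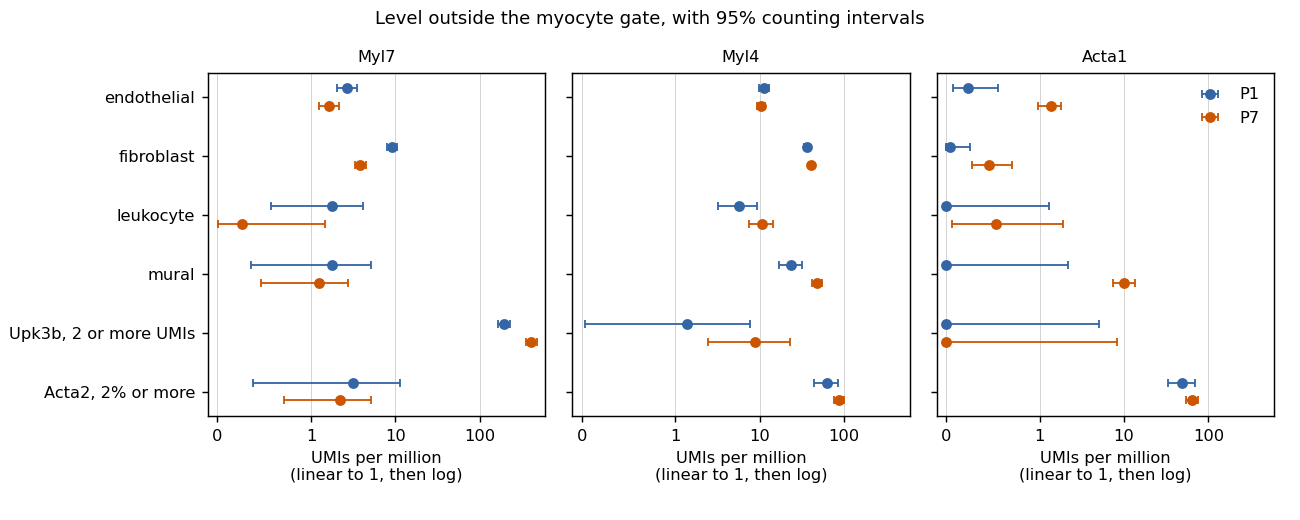
UMIs per 1000000 non-mitochondrial UMIs of Myl7, Myl4 and Acta1 outside myocytes at P1 and P7, by gate and in the barcodes with at least 2 Upk3b UMIs or at least 2% Acta2, on an axis linear to 1 and logarithmic above, with 95% Poisson intervals. Myl7 is highest in the Upk3b group (194 and 410 CPM), Myl4 in the Acta2 group (62.0 and 86.8 CPM), and Acta1 in the Acta2 group (49.3 and 63.5 CPM).

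Other genes of the contractile apparatus were counted by list in myocytes against the 17.8 and 4.88% of all genes that were 2-fold higher at P1 and P7. Of 9 measured thick filament and M-band genes, 4 were higher at P1 and 0 at P7 (median log2 0.68, or 3 and 0.45 with genes at 0 set to the floor of 3 counts). Among them were Smyd1, a methyltransferase of myosin assembly (1.80), and Mylk3, the cardiac light chain kinase (1.74). Myom1, an M-band cross-linker, was another (1.31), with an interval from -0.08 to 3.83 that included 0. Of 9 thin filament genes 1 was higher at P1 and 0 at P7 (median 0.38), and this was Lmod3, an actin nucleator (48 UMIs against 1, log2 1.78, -0.19 to 7.69). Nebl, the cardiac nebulin relative, was within 2-fold (0.98). Of 15 Z-disc and costamere genes 2 were higher at P1 and 1 at P7 (median 0.20, or 1 at P1 and 0.18 with the floor). The gene higher at P7 was Myoz2, a Z-disc calcineurin binder (1345 CPM at P1 and 2721 CPM at P7, log2 -1.02).

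Of 15 measured genes of maturation 3 were higher at P1 and 2 at P7 (median -0.13). Mb, the oxygen carrier myoglobin, was at 3651 CPM at P1 and 8348 CPM at P7 (log2 -1.19). Ryr2, the calcium release channel, had 96 UMIs at P1 and 1 at P7 (log2 2.78, 0.84 to 8.67), and Atp2a2, the calcium pump of the sarcoplasmic reticulum, had 410 and 11 (1.93). Of the 96 P1 Ryr2 UMIs, 58 were in the 10 myocytes above 5% mitochondrial UMIs and 25 in the 3 Myl7-dominant barcodes, groups that overlap. Of 12 measured foetal and smooth muscle genes 4 were higher at P1 and 0 at P7 (median 0.80), including H19 (2.58) and Myl9, a smooth muscle light chain (2.45). Dlk1 had 70 UMIs at P1 against 0 at P7. It was 2.48-fold higher at P1 with a floor of 3 counts over the P7 myocytes, and its log2 interval began at 0.98. Of 5 measured atrial genes 4 were higher at P1 (median 2.13, or 0.68 with the floor), of which Sln (182 UMIs against 1) and Nppa (607 against 5) stayed so when genes at 0 were set to the floor. The 3 Myl7-dominant barcodes held 157 of the Sln and 380 of the Nppa UMIs. Of 4 measured ventricular genes 1 was higher at P1 and 0 at P7 (median 0.17), namely Mpped2 (53 UMIs against 2, log2 1.19, -0.43 to 4.58).

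Likeness of pattern was measured as Pearson's r of log2(CPM + 1) over 10 levels, namely 5 gates in 2 libraries, for 1503 genes. The levels share their libraries, and the step from myocytes to other gates dominates them. Nearest to Myl2 was Mb (0.997), to Actc1 and to Tnni3 the muscle creatine kinase gene Ckm (0.996 and 0.995), to Myh7 Smpx (0.996), to Myh6 Kcne1 (0.989) and to Tnni1 the desmosomal gene Pkp2 (0.992). Myl7 was nearest to Sln (0.971), Myl4 to Ss18l2 (0.984) and Acta1 to Mrpl35 (0.969).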

How the data were processed

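UMI counts per gene and barcode of 2 libraries, P1 and P7, were deposited by the authors without normalisation and before cell filtering. The submitters' processing notes name Cell Ranger 3.1.0, mm10 and GRCm38. Counts were used as deposited, with all columns read. Barcodes with 200 to 8000 genes and at most 20% mitochondrial UMIs were kept (4991 of 7836 at P1 and 8511 of 9077 at P7, from 63585504 and 98346195 UMIs). No doublet caller was applied, and doublets were limited by the 8000 genes and by the exclusion of Pecam1. Other barcodes were assigned in the order leukocyte (at least 2 Ptprc UMIs), endothelial (at least 2 of Pecam1 and Cdh5), mural (Rgs5, Myh11, Kcnj8 and Notch3 at 0.5%), fibroblast (Col1a1, Col3a1, Dcn and Pdgfra at 1%) and rest. UMIs were summed per library and gate and scaled to 1000000 non-mitochondrial UMIs. Log2 ratios of P1 over P7 carry 0.5 added counts and exact conditional binomial intervals, shares Clopper-Pearson intervals, differences of shares Newcombe intervals, and levels exact Poisson intervals, all at 95%. The ratio and its interval were tested on simulated Poisson counts only. Such counts hold no spread between barcodes, so that test does not cover it. A gene counted as higher at 2-fold with at least 20 summed UMIs. Named genes were the 9 members, the gate genes, up to 4 genes per list with the largest absolute ratio, and the nearest of the 3 most alike genes per member. The members and lists were chosen with earlier results of these data known. Positions and transcripts are from GENCODE M21. Python 3.11.15, numpy 2.4.6, scipy 1.17.1, pandas 2.3.3 and matplotlib 3.10.9 were used. Alternatives to the filters, gate, weighting, depth and scaling are given in the closing section.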

Additional observations from a re-analysis of the deposited data

Results flagged for a closer look

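The cardiac actin share differed in opposite directions inside and outside the myocyte gate. It was 3.17 percentage points higher at P7 than at P1 in myocytes and -2.95 points, that is lower at P7, in all other cells, and the difference between these values was not tested. In myocytes 87.1% of the P1 Acta1 UMIs were in the deepest barcode, and outside them 66.8% of the P7 Acta1 UMIs were in barcodes with at least 2% Acta2.

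Sarcomere transcripts were also present in barcodes that the comparisons did not use. The 9 genes took 0.634% of non-mitochondrial UMIs at P1 and 0.0668% at P7 in barcodes with fewer than 200 genes, above the 0.0219 and 0.0214% of all other kept cells. In barcodes that passed the myocyte gate but exceeded the mitochondrial limit they took 5.997% at P1 and 4.98% at P7, against 5.23 and 4.84% in myocytes.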

How the results depend on the processing

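The Tnni3 share kept its direction and size under all 13 alternatives run (6.85 to 11.4 points higher at P7). These alternatives overlap in their P7 barcodes, a few of which held much of the pair, so they are not independent. No share of a gene pair changed direction in any alternative, whereas the log2 ratios of Myh7, Tnni3, Actc1 and Myl2 did in at least 1. Only 11.1% of the P1 Myl4 UMIs lay outside the deepest and the Myl7-dominant barcodes, and no alternative left out all of these together. The Myh6 share difference was -21.8 points with no mitochondrial limit and -4.76 thinned. The value with no limit includes 1 P7 barcode with 97 Myh6 and 85 Myh7 UMIs. The Actc1 share difference was 0.349 points at a mitochondrial limit of 10%, 4.10 at a gate of 3%, 0.649 with cells weighted equally, 0.520 with myocytes thinned to 1000 UMIs (72 and 11 cells, 12 and 8 left out), and, among alternatives chosen after seeing the data, 0.312 without the deepest myocytes and 0.397 at up to 5% mitochondrial UMIs. The Myl7 and Myl4 share differences were -20.2 (Myl7) at a limit of 10%, -14.8 and -8.55 with no limit, -21.3 and -12.8 at a gate of 0.5%, -1.05 and -4.08 at a gate of 3%, -21.0 and -12.9 with other gate genes, -5.39 and -3.01 with cells weighted equally, and -8.55 and -5.12 thinned. In alternatives chosen after seeing the data they were -19.2 and -8.65 without the deepest myocytes, -8.40 and -3.72 at up to 5% mitochondrial UMIs, and -1.15 and -2.41 without the Myl7-dominant barcodes. Leaving out those barcodes or the deepest one changes which cells are summed, and otherwise the cause was not tested. Of the 9 genes, 3 to 5 were 2-fold higher at P1 over 15 alternatives. At a minimum of 50 UMIs, 199 of 1515 genes (13.1%) were higher at P1 and 31 (2.05%) at P7. No paired analysis was possible because each age is 1 library. With 54385 UMIs in 19 barcodes, the P7 myocytes limit the precision of each comparison.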
